A study of Homo sapiens with 9 samples.

Results

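Smooth muscle actin, the transgelins, tropomyosins, caldesmon, calponins and a regulatory myosin light chain are the actin-bound proteins of the contractile apparatus, and 9 of their genes were followed here through MPZL3 knockdown: ACTA2, TAGLN, TAGLN2, TPM1, TPM2, CALD1, MYL9, CNN2 and CNN3. They were taken by gene name, each name matched 1 row, and together they were 9 of 58735 genes in the table and 9 of the 16928 that passed a filter on low counts. No measured value entered the choice of these rows, although results of the same libraries were already known when the list was drawn up. The samples were 9 RNA-seq libraries of OVCAR4, an established human cell line of high-grade serous ovarian carcinoma, 3 in each of 3 groups. Cells were transduced either with a scramble hairpin (scr), with shMPZL3 #1 or with shMPZL3 #2, and all of them were selected with puromycin for 3 days. The labels give the genotype as WT for scr and as MPZL3 knock-down for both hairpins, and the study describes the 3 samples of a group as biological replicates. MPZL3 is an immunoglobulin-domain membrane protein. Each hairpin comes from 1 sequence, so an effect of MPZL3 loss and any other effect of that hairpin cannot be told apart within a single hairpin, and the samples are transduced cultures of 1 cell line.

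In smooth muscle and in fibroblasts that have become contractile, ACTA2 supplies the actin of thick stress fibres, and TAGLN (also called SM22) and the calponins bind along it. Tropomyosins lie in the groove of the filament and, with caldesmon, set how far myosin can reach it, while MYL9 encodes the light chain whose phosphorylation switches non-muscle and smooth muscle myosin on. Epithelial cancer cells express the widely used members of these families too (TAGLN2, CNN2, CNN3 and the short tropomyosins), and a rise of the smooth muscle members is often read as part of a mesenchymal programme. Many of these genes are known targets of serum response factor, which binds the CArG box, a short motif with C pairs on the left, G pairs on the right and A or T bases between.

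The RefSeq promoter table (GRCh38.p14) held 15 windows, from 250 bases before to 50 after a transcript start, for 7 of the 9 genes, and held none for TAGLN or MYL9. Both strands were searched. A full CArG box was present in 1 of the 15 windows, that of CNN2, against 1.29% of all 35116 promoter windows. With 1 base of the centre allowed to be C or G, a search added after the sequences had been seen, there were matches in 2 of the 15 windows, 1 of ACTA2 and 1 of CALD1, against 6.94% of all windows. That CALD1 window, chr7:134711249-134711548, lies outside the gene as counted, which begins at base 134744252. ACTA2 had another window, which held neither form of the box and is not shown. The 2 windows below were taken from those with a match, and they belong to the genes with the largest and one of the smaller responses of the set. They are given up to the base before the start, 5′ to 3′ along the gene, with the matches in capitals. The ACTA2 window is chr10:88952774-88953023 on the minus strand, and its capitals mark the matches with 1 other base, at bases -121 to -112 and -71 to -62. The CNN2 window is chr19:1026358-1026607 on the plus strand, and its capitals mark the full CArG box at bases -89 to -80.
ACTA2: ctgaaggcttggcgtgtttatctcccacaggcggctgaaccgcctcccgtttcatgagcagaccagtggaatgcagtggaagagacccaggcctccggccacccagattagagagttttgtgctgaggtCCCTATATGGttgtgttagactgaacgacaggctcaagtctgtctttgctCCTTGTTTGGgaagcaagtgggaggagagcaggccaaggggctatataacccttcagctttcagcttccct
CNN2: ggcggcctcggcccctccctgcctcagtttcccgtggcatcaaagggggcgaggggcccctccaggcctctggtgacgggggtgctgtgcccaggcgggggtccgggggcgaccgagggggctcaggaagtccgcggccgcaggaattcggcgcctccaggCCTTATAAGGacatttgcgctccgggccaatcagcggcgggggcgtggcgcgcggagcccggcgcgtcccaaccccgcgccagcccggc
The other motifs searched were TATAAA, found in 1 of the 15 windows and 11.5% of all windows, GGGCGG, found in 9 of 15 and 45.0%, and CATTCC (the MCAT element), found in 4 of 15 and 14.0%. None of the motifs searched for overlapped a capitalised match in these 2 windows. Letters in a window are no evidence that a factor binds there, and counts per gene do not show which start was used.

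Total counts were 15040102 to 27835841 per library, and MPZL3 itself checked the labels. Levels are given as CPM, the count of a gene relative to the TMM-scaled total of its library. MPZL3 stood at 28.1 ± 1.87 CPM in scr, 6.24 ± 0.628 with shMPZL3 #1 and 15.2 ± 2.90 with shMPZL3 #2 (n = 3 each, SD), so every knockdown library lay below every scr library and the hairpins differed in what they left. The 9 genes together took 0.551% to 0.608% of all counts in scr, 0.802% to 0.866% with shMPZL3 #1 and 0.627% to 0.677% with shMPZL3 #2. The first scr library stood apart within its group: all 9 genes were below their scr mean in it. The other scr libraries were each above that mean for 8 of 9, which follows largely from the first. Its median log2 deviation from the group mean was -0.089. The second shMPZL3 #2 library deviated further from its own group, at -0.123, with 5 genes below and 4 above. Results that depend on the first scr library are given without it. Bulk RNA cannot tell a larger number of expressing cells from more RNA per cell.

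ACTA2, the actin of smooth muscle and contractile fibroblasts (ENSG00000107796, GRCh38 chr10:88935074-88991339, minus strand), had the largest change of the 9 genes. Its CPM values were 6.85, 14.95 and 19.86 in scr, 106, 126 and 155 with shMPZL3 #1, and 21.6, 26.2 and 19.92 with shMPZL3 #2. All 3 shMPZL3 #1 libraries lay far above the rest, while the lowest shMPZL3 #2 library, at 19.92, was just above the highest scr library, at 19.86. In edgeR's quasi-likelihood test, with Benjamini-Hochberg adjustment over all genes tested, ACTA2 rose 9.29-fold with shMPZL3 #1 (log2 fold change 3.21, SE 0.25, adjusted p = 4.98e-07). With shMPZL3 #2 the log2 difference was 0.70 (95% confidence interval 0.18 to 1.21) with an adjusted p of 0.0622, which missed the threshold of 0.05. The value for shMPZL3 #2 hung on single scr libraries: it was 0.37 without the first and 1.01, with adjusted p = 0.0119, without the third. The call also hung on the model: with the replicate number in the fit as a block, the log2 difference was 0.75 (adjusted p = 0.00310). The difference between the hairpins was tested directly, and ACTA2 was lower with shMPZL3 #2 by a log2 difference of -2.52 (SE 0.23, adjusted p = 4.90e-06).

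Reads of overlapping genes bear on ACTA2, since the libraries kept no strand. FAS, a death receptor on the opposite strand, shares 380 exon bases with ACTA2 and had 4170 counts over the 9 libraries against 10612 for ACTA2. FAS was at 15.9 ± 2.63 CPM in scr and 28.6 ± 5.27 with shMPZL3 #1 (n = 3 each, SD), and it rose with that hairpin by 0.85 on the log2 scale (SE 0.16, adjusted p = 0.000676). How many reads of the shared exons went to either gene was not tested. The antisense gene ACTA2-AS1 had 44 counts in all.

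The transgelin pair parted. TAGLN (ENSG00000149591, chr11:117199321-117204782, plus strand), a smooth muscle actin-binding protein, had CPM values of 762, 883 and 874 in scr, 1265, 1213 and 1382 with shMPZL3 #1, and 1162, 1018 and 1201 with shMPZL3 #2. All 6 knockdown libraries were above all 3 scr libraries. TAGLN rose by 0.62 on the log2 scale with shMPZL3 #1 (SE 0.10, adjusted p = 0.000248) and by 0.42 with shMPZL3 #2 (SE 0.10, adjusted p = 0.00871). TAGLN2, the transgelin of most other cell types (ENSG00000158710, chr1:159918107-159925732, minus strand), had CPM values of 1337, 1404 and 1363 in scr, 1526, 1243 and 1346 with shMPZL3 #1, and 1319, 1177 and 1357 with shMPZL3 #2. The TAGLN2 groups overlapped throughout, with log2 differences of 0.00 (95% confidence interval -0.21 to 0.21) and -0.09 (-0.30 to 0.12). TAGLN lies on the same chromosome as MPZL3, with 1021907 bases between them. It shares 446 exon bases with PCSK7, a protease gene on the opposite strand that had 7867 counts against 204784 for TAGLN.

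MYL9, the myosin regulatory light chain (ENSG00000101335, chr20:36541484-36551447, plus strand), showed the next largest rise after ACTA2. It had CPM values of 356, 472 and 501 in scr, 942, 779 and 1033 with shMPZL3 #1, and 735, 553 and 726 with shMPZL3 #2. No knockdown library overlapped scr. The rise was 1.05 on the log2 scale with shMPZL3 #1 (SE 0.14, adjusted p = 5.31e-05) and 0.60 with shMPZL3 #2 (SE 0.14, adjusted p = 0.00833).

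The tropomyosins differed in how they followed the hairpins. TPM1 (ENSG00000140416, chr15:63042632-63071915, plus strand) had CPM values of 712, 775 and 777 in scr, 1098, 1148 and 1095 with shMPZL3 #1, and 935, 993 and 1012 with shMPZL3 #2. Its groups did not overlap and its replicates lay close together, and it rose with both hairpins, by 0.56 (SE 0.09, adjusted p = 0.000189) and 0.38 (SE 0.09, adjusted p = 0.00849) on the log2 scale. TPM2 (ENSG00000198467, chr9:35681992-35690121, minus strand) had 352, 416 and 428 in scr, 562, 496 and 648 with shMPZL3 #1, and 447, 356 and 465 with shMPZL3 #2. TPM2 rose with shMPZL3 #1 by 0.51 (SE 0.12, adjusted p = 0.00444), while with shMPZL3 #2 the groups overlapped, 2 libraries lying above all of scr and 1 within its range, and the log2 difference was 0.08 (95% confidence interval -0.17 to 0.34). Each gene makes many isoforms, 34 annotated transcripts for TPM1 and 12 for TPM2, which a count per gene adds together. The antisense gene TPM1-AS shares 2070 exon bases with TPM1 but had only 324 counts against 178572.

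CALD1, caldesmon (ENSG00000122786, chr7:134744252-134970728, plus strand), passed the test with shMPZL3 #1 and not with shMPZL3 #2. Its CPM values were 1148, 1251 and 1268 in scr, 1616, 2093 and 1794 with shMPZL3 #1, and 1120, 1327 and 1190 with shMPZL3 #2. The shMPZL3 #1 libraries were above all others, and the remaining groups were intermixed. The log2 change was 0.59 with shMPZL3 #1 (SE 0.11, adjusted p = 0.000617) and -0.01 with shMPZL3 #2 (95% confidence interval -0.24 to 0.21), and the difference between hairpins was -0.60 (SE 0.11, adjusted p = 0.00136).

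The calponins are actin-binding proteins that restrain myosin. CNN3, acidic calponin (ENSG00000117519, chr1:94896949-94927278, minus strand), had CPM values of 490, 523 and 533 in scr, 601, 613 and 611 with shMPZL3 #1, and 479, 507 and 495 with shMPZL3 #2. It rose with shMPZL3 #1 by 0.24 (SE 0.09, adjusted p = 0.0448), a call near the threshold that was lost on leaving out any single library except the first of shMPZL3 #1 (adjusted p up to 0.175), and its log2 difference with shMPZL3 #2 was -0.06 (95% confidence interval -0.25 to 0.12). CNN2, a calponin of non-muscle cells (ENSG00000064666, chr19:1026581-1039068, plus strand), had 328, 331 and 342 in scr, 428, 346 and 448 with shMPZL3 #1, and 405, 328 and 418 with shMPZL3 #2. The 3 scr values were tight and the second library of each hairpin was close to them. Neither log2 difference of CNN2 passed the test, at 0.29 (adjusted p = 0.0640) and 0.20 (adjusted p = 0.255). Of the 11 CNN2 pseudogenes, CNN2P1 had 110 counts, CNN2P9 had 10 and the others 0, against 70257 for CNN2, and TAGLN2P1 had 37 against 248735 for TAGLN2.

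**Figure D1:**
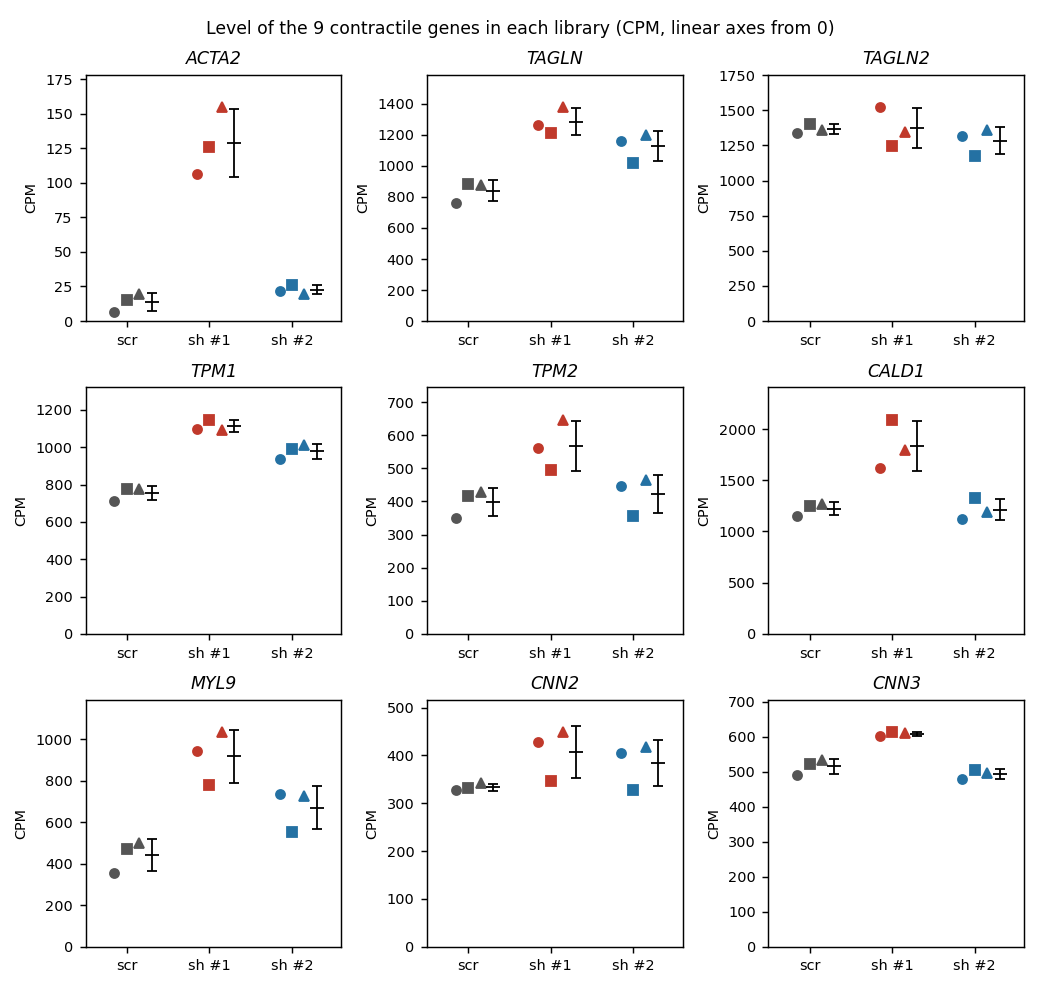
CPM of each gene (vertical, linear from 0) in the 3 scr, 3 shMPZL3 #1 and 3 shMPZL3 #2 libraries, with circles, squares and triangles for replicates 1, 2 and 3 and the bar for mean ± SD. ACTA2 stands far above the other groups with shMPZL3 #1 only, at 106 to 155 CPM. ACTA2, TAGLN, TPM1 and MYL9 are above scr in all 6 knockdown libraries, ACTA2 only just so in the lowest shMPZL3 #2 library.

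Counted together, 7 of the 9 genes rose with shMPZL3 #1, where 16.8% of all genes tested were called higher, and 3 rose with shMPZL3 #2, where 9.36% were. TAGLN, TPM1 and MYL9 rose with both hairpins, as did 6.52% of all genes. None of the 9 was called lower against scr in edgeR or DESeq2, where edgeR called 15.3% of all genes lower with shMPZL3 #1 and 5.80% with shMPZL3 #2, and none was lower at an unadjusted p under 0.05 in edgeR. Every library of shMPZL3 #1 was above every scr library for 8 genes (23.9% of all genes), every library of shMPZL3 #2 for 4 (18.7%) and all 6 knockdown libraries for 4 (11.8%). The median log2 fold change was 0.56 for the 9 genes and 0.01 for all genes with shMPZL3 #1, and 0.20 and 0.00 with shMPZL3 #2. The 2 hairpin comparisons share their scr libraries.

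With the 6 knockdown libraries taken as 1 group, 4 genes rose, where 9.36% of all genes did: ACTA2 (log2 fold change 2.45, SE 0.70, adjusted p = 0.0320), MYL9 (0.84, SE 0.18, adjusted p = 0.00836), TAGLN (0.52, SE 0.11, adjusted p = 0.00761) and TPM1 (0.47, SE 0.10, adjusted p = 0.00720). Without the first scr library edgeR called 0 of the 9 in the grouped comparison and 0 with shMPZL3 #2, against 6 with shMPZL3 #1. The share of all genes called higher fell too, to 2.58%, 5.17% and 11.3%. At an unadjusted p under 0.05 the counts without that library were 4, 4 and 6, and DESeq2 called 3, 3 and 6. The share of all genes was not computed at that cut or for DESeq2, so these counts have no background beside them. The adjusted p-values of TAGLN, TPM1 and MYL9 for shMPZL3 #2 were then 0.0652, 0.0565 and 0.0609 in edgeR, with log2 differences of 0.35, 0.33 and 0.46. The TAGLN call with shMPZL3 #2 was also lost without the third shMPZL3 #2 library (adjusted p = 0.0554). The grouped ACTA2 call was also lost without the second scr library (adjusted p = 0.103), the third (0.0697) or the first shMPZL3 #1 library (0.0532).

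The hairpins differed for 5 of the 9 genes, all lower with shMPZL3 #2, where 7.56% of all genes were called lower in that comparison. Besides ACTA2 and CALD1, these were MYL9 (log2 difference -0.45, SE 0.14, adjusted p = 0.0388), TPM2 (-0.43, SE 0.12, adjusted p = 0.0263) and CNN3 (-0.30, SE 0.09, adjusted p = 0.0271). For 7 genes all 3 shMPZL3 #2 libraries were below all 3 shMPZL3 #1 libraries, as for 14.6% of all genes. TAGLN and TPM1 differed by -0.19 each (95% confidence intervals -0.40 to 0.02 and -0.37 to 0.00) and were not called. The count of 5 fell to 2 without the third shMPZL3 #1 or the first shMPZL3 #2 library, and to 3 without the second scr library or either of the other shMPZL3 #2 libraries. The share of all genes called lower fell too, to 4.57% and 4.79% in the runs that gave 2. In the runs that gave 3 it was 6.08%, 7.34% and 4.58%. ACTA2 and CALD1 kept their calls in all of these runs. MPZL3 was left at a higher level by shMPZL3 #2, and the part of that in the difference was not tested.

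**Figure D2:**
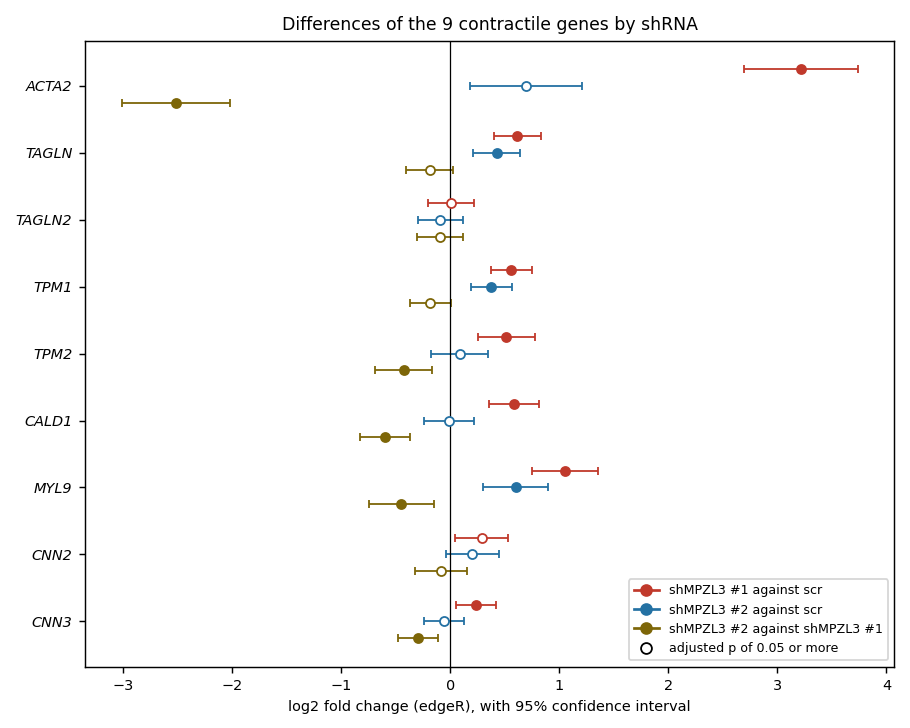
Log2 fold change (horizontal, edgeR, with its 95% confidence interval) of each gene for shMPZL3 #1 against scr, shMPZL3 #2 against scr and shMPZL3 #2 against shMPZL3 #1, with open circles for an adjusted p of 0.05 or more. ACTA2 is the farthest point in both directions, at 3.21 and -2.52, and all 9 points for shMPZL3 #2 against shMPZL3 #1 are below 0.

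Per length of the merged exons, as RPKM (the CPM divided by the length in kilobases), TAGLN2 had the highest scr level, 550 ± 13.7, and ACTA2 the lowest, 4.67 ± 2.21 (n = 3 each, SD). Between them came TAGLN at 214 ± 17.3, CNN3 at 182 ± 7.91, MYL9 at 157 ± 27.3, CALD1 at 124 ± 6.61, TPM2 at 123 ± 12.6, CNN2 at 91.5 ± 2.04 and TPM1 at 58.6 ± 2.87. CALD1 and TPM2, neighbours in that order, differed by less than their spread, as did CNN3 and MYL9. The first and last places stayed with the length of the longest transcript, but CALD1 moved to 286 RPKM and the second place and TPM1 to 191 RPKM and the sixth, since their merged exons are 9843 and 12876 bases long against 4281 and 3957 for the longest transcript. Even after its rise, ACTA2 remained the lowest of the 9 genes with shMPZL3 #1, at 43.4 ± 8.26 RPKM.

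Ratios within a library do not depend on its depth or scaling. The log2 ratio of TAGLN to TAGLN2 was -0.71 ± 0.09 in scr, -0.09 ± 0.16 with shMPZL3 #1 and -0.19 ± 0.02 with shMPZL3 #2 (n = 3 each, SD). All 6 knockdown libraries, at -0.27 to 0.04, were above the scr range of -0.81 to -0.64, a difference of 0.57 (two-sided exact permutation test, p = 0.0119, the smallest that 6 against 3 libraries can give, and 0.0476 after adjustment over 4 ratios). ACTB, the cytoplasmic actin, itself rose with shMPZL3 #1 by 0.53 (SE 0.13, edgeR adjusted p = 0.00561). With shMPZL3 #2 it differed by 0.39 (edgeR adjusted p = 0.0517), so a ratio to ACTB is not the change of ACTA2 alone. ACTA2 over ACTB differed by 1.62 (exact permutation p = 0.0952, adjusted p = 0.190). This ratio was -8.42 ± 0.75 in scr, -5.61 ± 0.43 with shMPZL3 #1 and -7.98 ± 0.43 with shMPZL3 #2 (n = 3 each, SD), and the scr and shMPZL3 #2 ranges overlapped. The ratios of TPM1 to TPM2 and of CNN3 to CNN2 differed by 0.17 and -0.15, with exact permutation p-values of 0.274 and 0.298 (both 0.298 after adjustment), and their groups overlapped.

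**Figure D3:**
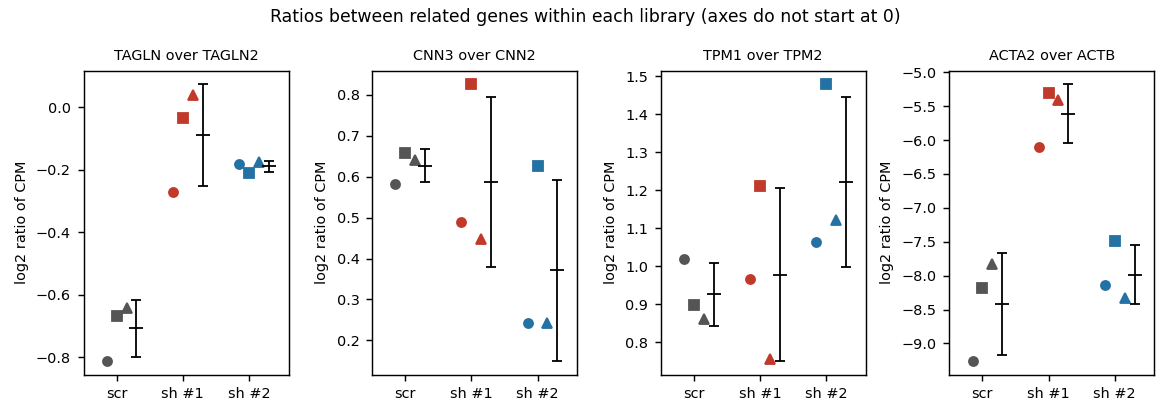
Log2 ratio of the CPM of 2 related genes (vertical, axes not from 0) in each library by group, with circles, squares and triangles for replicates 1, 2 and 3 and the bar for mean ± SD. TAGLN over TAGLN2 is higher in all 6 knockdown libraries than in scr, ACTA2 over ACTB stands apart with shMPZL3 #1, and the other pairs overlap.

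The genes with the most similar course over the 9 libraries were sought among 9881 protein-coding genes, by the root mean square difference of log2 CPM centred on each gene's mean. ACTA2 was nearest to IDO1, the tryptophan-degrading enzyme, at 0.298, and LRRC31, at 0.492, against its own spread of 1.47. IDO1 was at 11.6 ± 4.06 CPM in scr, 139 ± 47.4 with shMPZL3 #1 and 28.3 ± 7.98 with shMPZL3 #2 (n = 3 each, SD). That this is the same order of groups as ACTA2 follows from the search itself. TAGLN was nearest to IPO13 and TOLLIP, TPM1 to KIAA0319L and SMYD2, MYL9 to PNCK and CX3CL1, CALD1 to MFSD6 and MYO6, and TPM2 to SLC12A4 and MAVS. CNN2 was nearest to PPP1R37 and GRK6, CNN3 to CCNDBP1 and EFCAB14, and TAGLN2 to CAPZB and COG4. Within the set, TAGLN and TPM1 were each other's nearest gene, at 0.0976, although TPM1 ranked only 78 among all genes searched by nearness to TAGLN and TAGLN 49 by nearness to TPM1.

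Other genes of the same machinery were read from fixed lists, whose counts stand against 16.8% of all genes called higher and 15.3% called lower with shMPZL3 #1, and 9.36% and 5.80% with shMPZL3 #2. Among 20 actin crosslinkers and focal adhesion genes, 12 rose with shMPZL3 #1 and 5 with shMPZL3 #2 and edgeR and DESeq2 called none lower (1 and 0 at an unadjusted p under 0.05 in edgeR, medians 0.31 and 0.18, against 0.01 and 0.00 for all genes). They included LIMA1, which stabilises actin filaments, at 140 ± 25.8 CPM in scr, 317 ± 58.5 with shMPZL3 #1 and 218 ± 31.9 with shMPZL3 #2 (n = 3 each, SD). ACTN1, an actinin that bundles filaments, rose by 0.89 (SE 0.11, adjusted p = 2.48e-05) and 0.74 (SE 0.11, adjusted p = 0.000183). ZYX, a focal adhesion protein, rose by 0.69 and 0.68 (adjusted p = 0.00248 and 0.00613). Leaving out the first scr library, 8 and 2 of the 20 rose, and the adjusted p of LIMA1 with shMPZL3 #2 was 0.0593.

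Of 18 myosin heavy chains and regulators, 7 rose and 1 fell with shMPZL3 #1, and 2 rose and 1 fell with shMPZL3 #2, shares near those of all genes for the second hairpin. PPP1R12B, a targeting subunit of myosin phosphatase, rose by 1.18 and 0.89 (adjusted p = 1.52e-05 and 0.000246), and MYH9, the main non-muscle myosin heavy chain, by 0.56 and 0.43 (adjusted p = 0.00211 and 0.0219). The rises numbered 6 and 1 without the first scr library. Of 18 genes of filament assembly and turnover, 6 rose with shMPZL3 #1, and 2 rose and 1 fell with shMPZL3 #2. TMOD1, which caps the pointed end of filaments, rose by 1.55 and 1.07 (adjusted p = 1.21e-05 and 0.00045). Its relative TMOD2 went from 0 to 6 counts per library in scr to 88 to 162 with shMPZL3 #1 and 26 to 61 with shMPZL3 #2. TMOD2 was called with both and is among the rises counted here. With so few scr counts it passed the filter on low counts only through the knockdown libraries, so its calls are no separate support. When the first scr library was left out, 4 rose with shMPZL3 #1 and 2 with shMPZL3 #2.

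Of 11 tested genes among the other actins, tropomyosins, calponins and light chains, 3 rose and 2 fell with shMPZL3 #1 and 1 rose with shMPZL3 #2. Those that fell were the other tropomyosins, TPM3 by 0.59 (adjusted p = 0.000192) and TPM4 by 0.31 (adjusted p = 0.0241). Without the first scr library TPM3 kept its call and TPM4 did not (adjusted p = 0.00108 and 0.113). Neither was called with shMPZL3 #2. With shMPZL3 #1 the genes that rose were ACTB, ACTG2 and CNN1, and with shMPZL3 #2 CNN1 alone. CNN1, the smooth muscle calponin, was at 1.56 ± 0.576 CPM in scr, 7.57 ± 2.68 with shMPZL3 #1 and 3.56 ± 0.870 with shMPZL3 #2 (n = 3 each, SD), with adjusted p = 6.18e-05 and 0.0182. Without the first scr library its adjusted p with shMPZL3 #2 was 0.0908. Of 7 tested genes for serum response factor and its cofactors, 1 rose and 2 fell with shMPZL3 #1, and 1 rose and 1 fell with shMPZL3 #2. SRF itself differed by 0.12 and 0.12 (adjusted p = 0.387 and 0.449). MRTFA, the actin-sensing coactivator, rose by 0.30 and 0.33 (adjusted p = 0.0364 and 0.0406), and SCAI, which represses it, fell by 0.46 and 0.58 (adjusted p = 0.0431 and 0.0273). Without the first scr library none of these 4 calls was kept, and with shMPZL3 #2 edgeR and DESeq2 called 0 of the list (2 at an unadjusted p under 0.05 in edgeR). ELK3, also of the list, had a log2 difference of -1.24 with shMPZL3 #1 (edgeR adjusted p = 4.82e-05). It kept that call without the first scr library (-1.28, adjusted p = 0.000218) and was not called with shMPZL3 #2 (adjusted p = 0.453 with all libraries). MYOCD, the smooth muscle coactivator, had 0 or 1 counts in every library.

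Markers of other cells were examined beside these results. Of 8 smooth muscle markers, 5 were tested, and 5 rose with shMPZL3 #1 and 2 with shMPZL3 #2, CNN1 and LMOD1. LMOD1, a leiomodin, was at 19.4 ± 2.08 CPM in scr, 62.3 ± 12.9 with shMPZL3 #1 and 34.7 ± 1.91 with shMPZL3 #2 (n = 3 each, SD). The summed level of the 8 was 27.6 to 33.6 CPM in scr, 80.4 to 117 with shMPZL3 #1 and 50.9 to 52.6 with shMPZL3 #2. ACTC1 was at 0 to 6 counts per library and DES at 4 to 11. Of 9 fibroblast markers, 4 were tested, and 3 and 2 rose, among them COL1A1 and LUM with both hairpins, while DCN was at 0 counts in all 9 libraries and PDGFRA at 0 to 2. Their summed level was 18.9 to 23.1, 43.4 to 63.1 and 35.0 to 38.2 CPM. Without the first scr library the smooth muscle markers called numbered 5 and 1. The fibroblast markers called with all libraries kept their calls without it. A further fibroblast marker passed the filter on low counts only without that library and was called with shMPZL3 #1. It brought the counts to 4 and 2 of 5 tested and is not a stronger result. The part of these markers in the contractile genes' changes was not tested.

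Among 10 epithelial and ovarian carcinoma markers, 9 were tested. With shMPZL3 #1, KRT7, CDH1, PAX8 and CLDN4 rose and MUC16 fell, genes named after their values were seen. With shMPZL3 #2 edgeR and DESeq2 called 0, and 1 was higher at an unadjusted p under 0.05 in edgeR. With shMPZL3 #1, 2 rose and 1 fell without the first scr library. The summed level of the 10 was 5951 to 6291 CPM in scr, 6217 to 7652 with shMPZL3 #1 and 6007 to 7590 with shMPZL3 #2, so the epithelial markers of the line were present in every group. WT1, which marks many serous carcinomas, had 63 counts over the 9 libraries.

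**Figure D4:**
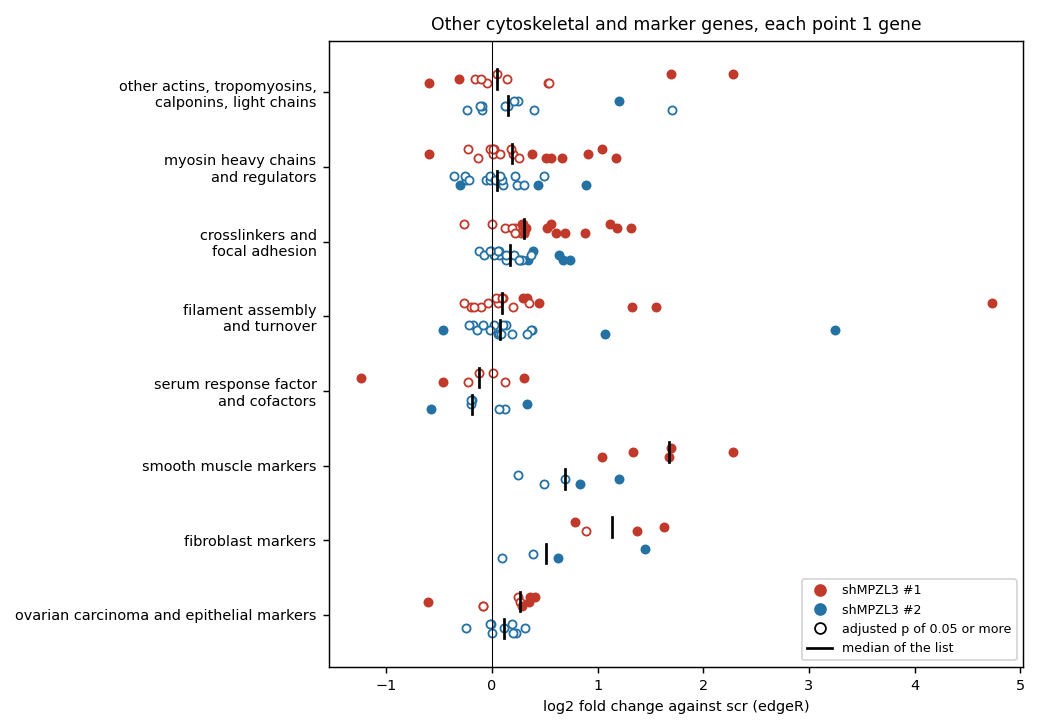
Log2 fold change against scr (horizontal, edgeR) of every tested gene of 8 lists (rows), with shMPZL3 #1 above and shMPZL3 #2 below in each row, open circles for an adjusted p of 0.05 or more and a black bar at each list's median. All 5 tested smooth muscle markers lie above 0 with both hairpins, with medians of 1.68 and 0.69, and the lists of serum response factor and its cofactors have medians of -0.13 and -0.19.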

How the data were processed

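RNA was extracted from 9 OVCAR4 cultures, and poly-A selected, non-directional libraries were sequenced. The submitters' processing notes name HISAT2 2.0.5, featureCounts 1.5.0-p3 and hg38. The authors deposited raw counts per gene, without normalization, for each library. All 58735 gene identifiers and positions matched GENCODE release 29 on GRCh38, and the table's length column equalled the merged exon length for the 9 genes. The members and the gene lists were chosen with earlier results of these data known.

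From the counts, genes were filtered with filterByExpr and scaled by TMM, and tested with edgeR 4.0.16 (quasi-likelihood, two-sided, R 4.3.3, limma 3.58.1) in a fit of 3 groups and a fit of 6 knockdown against 3 scr libraries, with Benjamini-Hochberg adjustment over 16928 genes and a threshold of 0.05. CPM used TMM-scaled library sizes, and log2 CPM a prior count of 2. DESeq2 1.42.0, other scalings and filters, a replicate block and leaving out each library were alternatives. DESeq2 and the gene lists without the first scr library, and the CArG search with 1 other base, were added after the data had been seen. The tests were tried on simulated data. Named were the 9 genes, from each list up to 3 genes called in 1 direction with both hairpins with the largest grouped change, the 2 nearest genes in pattern of each member, and overlapping genes and pseudogenes. ACTG2, TPM3, TPM4 and ELK3 were named after their values were seen. Replicates differed by more than counting noise (chi-square per gene 3.165 to 23.7).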

Additional observations from a re-analysis of the deposited data

Results flagged for a closer look

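For 5 of the contractile genes the effect of knockdown differed between the hairpins by a test of the difference itself (edgeR quasi-likelihood, shMPZL3 #2 minus shMPZL3 #1, log2). The differences were -2.52 for ACTA2 (adjusted p = 4.90e-06), -0.60 for CALD1 (adjusted p = 0.00136), -0.45 for MYL9 (adjusted p = 0.0388), -0.43 for TPM2 (adjusted p = 0.0263) and -0.30 for CNN3 (adjusted p = 0.0271). Of all genes tested, 7.56% were called lower in that comparison. In each of the 5 genes all 3 shMPZL3 #2 libraries were below all 3 shMPZL3 #1 libraries, as for 14.6% of all genes. The 5 were picked by a test on the same libraries, so this is no further support.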

How the results depend on the processing

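Of 36 log2 fold changes of single genes, 17 kept their direction and side of the threshold under every alternative run and 19 did not, and no called value changed sign. Leaving out 1 library gave 0 to 4 genes higher in the grouped comparison, 0 to 4 with shMPZL3 #2, 6 to 7 with shMPZL3 #1 and 2 to 5 lower with shMPZL3 #2 than with shMPZL3 #1. The 0 in the grouped and shMPZL3 #2 comparisons came without the first scr library. With fewer libraries the filter also kept more genes, and the share of all genes called varied. Over these runs 2.58% to 9.88% were higher in the grouped comparison and 5.17% to 9.89% with shMPZL3 #2. With shMPZL3 #1 the share was 11.3% to 17.0%, and 4.57% to 8.17% were lower with shMPZL3 #2 than with shMPZL3 #1. ACTA2 with shMPZL3 #2 gained a call under 3 of 17 alternatives: with no filter on low counts (adjusted p = 3.50e-06), where the cause was not tested, without the third scr library, and with the replicate block. CNN2 with shMPZL3 #1 gained one under 7 of 17 alternatives (adjusted p 0.0129 to 0.224 over all of them).

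Same-numbered replicates deviated together in 3 of 9 pairs (correlations of -0.0014 to 0.218, over 0.1 needed). Between the hairpins the same-number correlations were 0.137, 0.218 and 0.0966. Of 9 libraries, 5 correlated best with their own number in each of the other groups. Whether the numbers mark shared batches was not tested. The main fit did not pair the samples, and the replicate block was run as an alternative. With the replicate block, genes higher numbered 4, 8 and 4 in the grouped, shMPZL3 #1 and shMPZL3 #2 comparisons, and 5 differed between the hairpins. The share of all genes called with the block was not computed, so these counts have no background beside them. The SE of ACTA2 with shMPZL3 #2 was 0.24 without the block. The calls gained were ACTA2 with shMPZL3 #2 (log2 difference 0.75, SE 0.18, adjusted p = 0.00310) and CNN2 with shMPZL3 #1 (0.28, adjusted p = 0.0174). The TAGLN to TAGLN2 ratio difference of 0.57 then had an adjusted exact permutation p of 0.148, where the raw 0.0370 is the smallest the blocked permutation can give. Without 1 library that ratio difference was 0.52 to 0.60, and its adjusted p could not pass 0.05 with so few libraries. Depth limits TMOD2, MYOCD and the markers with few counts, and counting error is small for the 9 genes except ACTA2 in scr (106 to 326 counts).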
